A study of Mus musculus with 10 samples.

Results

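The opioid system is described here by 7 mouse genes, chosen by symbol as the opioid receptors and precursors and found by their Ensembl IDs: the receptor genes Oprm1, Oprd1, Oprk1 and Oprl1 and the peptide precursor genes Penk, Pdyn and Pnoc. All 7 are among the 55414 gene IDs counted in each library, and all 7 were among the 18005 genes that passed the filter on low counts. The tissue was the trigeminal ganglion, the sensory ganglion of the face, dissected from C57Bl6 mouse embryos at E13.5. The knockout embryos were Prdm12-/- with the label Sox10 Venus+ (5 libraries, knockout 16, 29, 42, 49 and 50), and the controls were Prdm12+/+ with that label as well (5 libraries, wild-type 22, 24, 32, 35 and 45). The loss of Prdm12 is described as constitutive in the title of the study. No sorting step is named in the labels, and neither is the number of embryos behind a library, so p-values measure the spread between libraries, which may in part be technical. Titles begin with F in the knockout and K in the wild type, and a handling step that these letters might mark cannot be told apart from genotype.

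Opioid peptides are cut from larger precursor proteins by proprotein convertases at pairs of basic residues and trimmed by carboxypeptidases. They act on receptors coupled to inhibitory G proteins, which lower cyclic AMP, close voltage-gated calcium channels and open inwardly rectifying potassium channels. In adult sensory ganglia the receptors sit on nociceptors and some mechanoreceptors, where they dampen transmitter release. Prdm12 encodes a zinc finger protein needed for nociceptors to form, and the comparison asks which opioid genes differ in ganglia that lack it.

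The precursors are recognised by the short peptides they carry, so the codons of these peptides are shown first. In the GENCODE M21 coding sequences, Penk, the proenkephalin gene, holds 6 copies of the Met-enkephalin codons (tyrosine, glycine, glycine, phenylalanine, methionine) and 1 copy of Leu-enkephalin. Pdyn, the prodynorphin gene, holds 3 copies of the Leu-enkephalin codons, which open its dynorphin and neoendorphin peptides. Pnoc, the prepronociceptin gene, holds 1 copy of the nociceptin start, in which phenylalanine takes the place of tyrosine. Each of these copies follows directly on a pair of codons for lysine or arginine. In the lines below, written 5′ to 3′, the capitals mark the peptide codons and the lower case the flanking codons.
Penk, Met-enkephalin copy 1: aagaagTACGGAGGCTTCATGaaacgg
Penk, Leu-enkephalin: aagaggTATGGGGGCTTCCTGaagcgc
Pdyn, first copy: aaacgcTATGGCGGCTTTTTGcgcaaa
Pnoc, nociceptin start: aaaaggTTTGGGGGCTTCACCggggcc

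In GENCODE M21 (GRCm38) Oprm1 (ENSMUSG00000000766) lies at chr10:6758506-7038198 on the plus strand and Oprd1 (ENSMUSG00000050511) at chr4:132110726-132144486 on the minus strand. Oprk1 (ENSMUSG00000025905) lies at chr1:5588466-5606131 and Oprl1 (ENSMUSG00000027584) at chr2:181715016-181720985, both on the plus strand. The precursor genes are all on the minus strand, Penk (ENSMUSG00000045573) at chr4:4133531-4138819, Pdyn (ENSMUSG00000027400) at chr2:129686565-129699844 and Pnoc (ENSMUSG00000045731) at chr14:65400673-65425472. Values are sums over all exons of a gene, so isoforms are not separated.

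The 4 receptors are close relatives, and how close they are bears on whether reads could be assigned to the wrong one. Their coding sequences were 61.9% (Oprk1 with Oprl1) to 70.4% (Oprm1 with Oprd1) identical over the aligned bases. The longest run of identical bases was 25, between Oprk1 and Oprl1, and the other pairs shared runs of 17 to 23. All 4 hold codons for aspartate, arginine and tyrosine at the inner end of the third transmembrane helix, a motif of this receptor class. The lines that follow give the stretch around this motif, with those 3 codons in capitals. Of the 45 bases in the stretch, 26 were the same in all 4 genes. No such count was made for the rest of the coding sequences.
Oprm1: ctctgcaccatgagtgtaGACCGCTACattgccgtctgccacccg
Oprd1: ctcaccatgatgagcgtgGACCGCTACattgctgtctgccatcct
Oprk1: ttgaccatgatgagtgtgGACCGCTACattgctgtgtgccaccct
Oprl1: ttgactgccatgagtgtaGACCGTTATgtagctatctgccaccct

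The smallest library held 3258008 counts (knockout 49), the next 13603690 (knockout 29), and the largest 33556002 (knockout 16). The other 7 libraries held 27308327 to 32045821. Levels are given as CPM, counts brought to a common library size with TMM factors, and 3 counts correspond to 0.869 CPM for knockout 49 and 0.236 CPM for knockout 29, and to 0.0889 to 0.107 CPM elsewhere. Prdm12 itself was at 8.74, 42.7, 10.1, 12.2 and 17.02 CPM in knockout 16, 29, 42, 49 and 50, against 74.3 to 264 CPM among the wild-type libraries, with no overlap (log2 fold change -3.32, SE 0.49, edgeR adjusted p = 0.0156). Markers of ganglion neurons and glia were present in all 10 libraries: the summed level of 10 pan-neuronal genes was 5047 to 12180 CPM in knockout ganglia, against 7196 to 13049 CPM in wild-type ganglia. Of 9 listed nociceptor genes, Mrgprd stayed under 3 counts in every library, and the summed level of the list was 318 to 533 CPM in knockout ganglia, against 1138 to 2713 CPM in wild-type ganglia. Wild-type libraries 32 and 35 stood apart, with the lowest mesenchyme marker sums of all libraries (707 and 988 CPM, where knockout libraries had 2841 to 10576 CPM and the other wild-type libraries 4311 to 6017 CPM).

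None of the 7 genes differed between the genotypes past the threshold (0 of 7 with an adjusted p under 0.05 in edgeR's quasi-likelihood test), where 0.467% of all 18005 tested genes did. DESeq2 called 0 of 7 as well, where it called 3.69% of the 17248 genes to which it gave an adjusted p. At an unadjusted p under 0.05 there was 1, Oprd1, where 13.1% of all tested genes reached that. The knockout and wild-type libraries overlapped for each of the 7 genes, whereas the groups did not overlap for 4.21% of all tested genes. The median log2 fold change, knockout over wild type, was 0.38 over the 7 genes and -0.03 over all tested genes. In bulk RNA, whether of whole ganglia or of a sorted part, fewer cells that express a gene and less of its RNA per cell cannot be told apart.

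**Figure D1:**
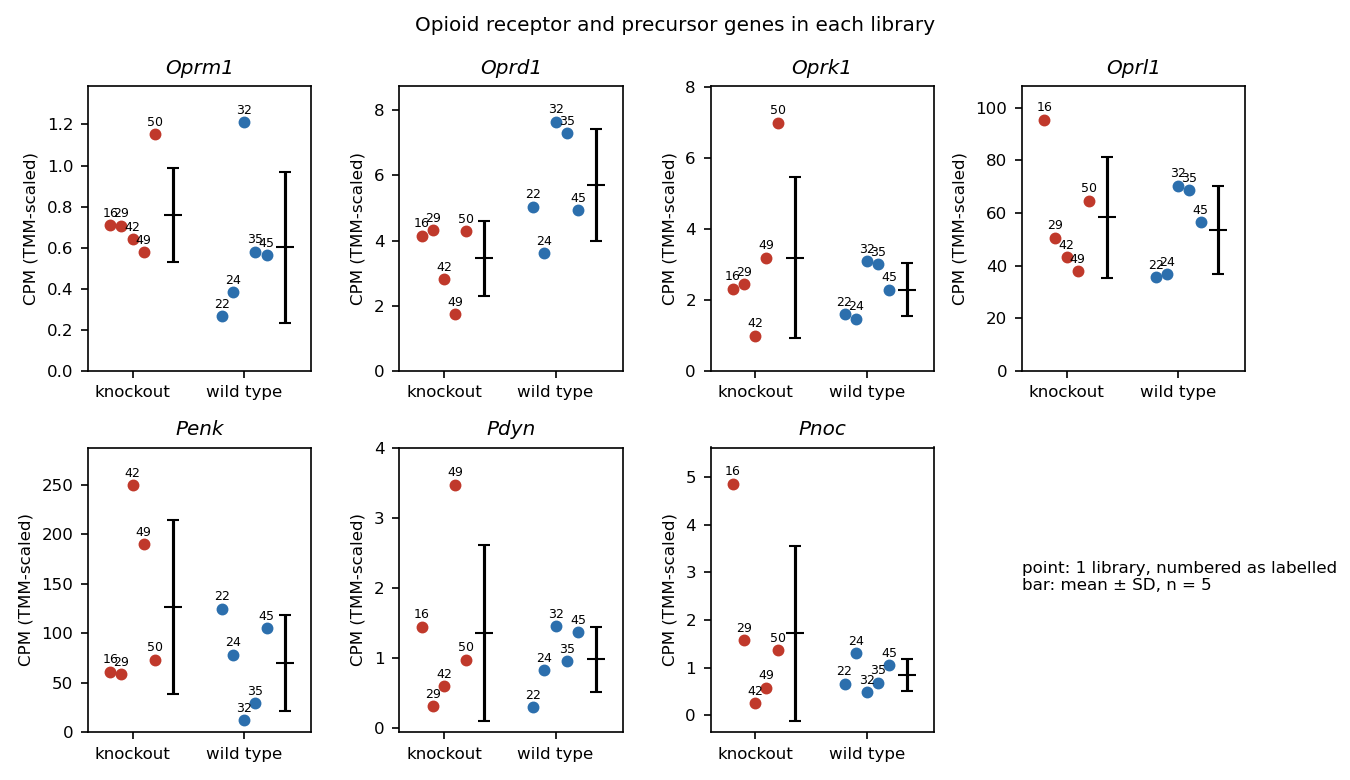
TMM-scaled CPM of each opioid gene in each of the 10 libraries, knockout (red) left of wild type (blue), with the mean ± SD of 5 libraries beside the points. The groups overlap in all 7 panels, and single libraries stand high, such as knockout 16 for Pnoc at 4.86 CPM.

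To compare genes with each other, CPM was divided by the length of each gene's merged exons in GENCODE M21. On this scale Penk had the highest mean level, 77.5 ± 53.8 CPM per kb in knockout ganglia, against 42.9 ± 29.5 CPM per kb in wild-type ganglia (SD, n = 5 each). Oprl1 was next, with 15.6 ± 6.13 CPM per kb in knockout ganglia, against 14.3 ± 4.46 CPM per kb in wild-type ganglia. The order of these genes was not kept in every library: Penk was above Oprl1 in 8 of 10 libraries and below it in wild-type 32 and 35. Oprl1 was above Oprd1 in all 10 libraries, with Oprd1 at 0.862 ± 0.287 CPM per kb in knockout ganglia, against 1.42 ± 0.43 CPM per kb in wild-type ganglia. Oprd1 in turn was above Pnoc in 9 of 10, all but knockout 16. Pnoc, Pdyn and Oprk1 followed at means of 0.595, 0.407 and 0.299 CPM per kb over the 10 libraries, and their order held in only 6 (Pnoc over Pdyn) and 7 (Pdyn over Oprk1) of 10, so these 3 were not separated beyond their spread. Oprm1 was the lowest at 0.0846 CPM per kb, below Oprk1 in all 10 libraries. Its merged exons, 8.04 kb in 22 blocks, include exons of several annotated isoforms, and a level per merged length is low for a gene whose RNA uses few of them.

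**Figure D2:**
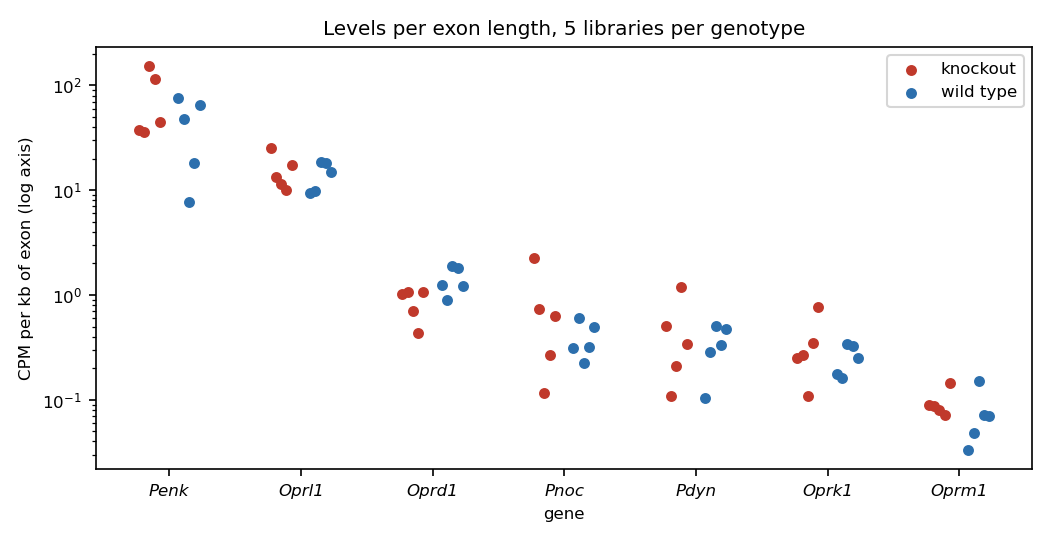
Level per exon length (CPM per kb, log axis) of the 7 genes, ordered by their mean over the 10 libraries, with 1 point per library and the knockout left of the wild type. Penk and Oprl1 lie above the other 5 genes in every library.

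Oprl1 encodes the nociceptin receptor and was the most abundant of the receptor genes by far. It made up 89.7% to 94.9% of the summed receptor level per kb in the knockout libraries and 86.7% to 90.7% in the wild-type libraries. Its level was 95.4, 50.7, 43.3, 37.9 and 64.7 CPM in knockout 16, 29, 42, 49 and 50, against 35.6, 36.9, 70.4, 68.7 and 56.6 CPM in wild-type 22, 24, 32, 35 and 45. Knockout 16 lay above all other libraries and wild-type 22 and 24 were the lowest, and the other 4 knockout libraries lay within the range of the wild type. The means were 58.4 ± 23.0 CPM in knockout ganglia, against 53.6 ± 16.7 CPM in wild-type ganglia (SD, n = 5 each). The log2 fold change was 0.13 (SE 0.28, 95% interval -0.48 to 0.74, edgeR adjusted p = 0.864). This interval is the narrowest of the 7 genes and lies within a 0.716-fold to 1.67-fold difference. Without knockout 16 the log2 fold change was -0.12.

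Oprd1 encodes the delta receptor, which binds enkephalins. It was at 4.15, 4.33, 2.81, 1.74 and 4.30 CPM in knockout 16, 29, 42, 49 and 50, against 5.04, 3.61, 7.66, 7.31 and 4.93 CPM in wild-type 22, 24, 32, 35 and 45. All but 1 of the wild-type libraries were above every knockout library. The exception was wild-type 24, which lay among the knockout values. The means were 3.46 ± 1.15 CPM in knockout ganglia, against 5.71 ± 1.72 CPM in wild-type ganglia (SD, n = 5 each). The fitted log2 fold change was -0.69 (SE 0.30, 95% interval -1.34 to -0.03). The unadjusted p was 0.0415 and the edgeR adjusted p over all genes was 0.364. Permuting the genotypes over log2(CPM + 1), an exact test on both sides, gave p = 0.0556. The smallest p that 5 against 5 libraries allow is 0.00794. For the other opioid genes the same permutation test gave p = 0.230 (Penk) to 0.746 (Oprl1), so 0.0556 is the smallest of 7. Oprd1 was the 1 gene of the 7 with a negative fold change, and it stayed negative in all 17 alternative analyses (-0.77 to -0.24). The smallest size, -0.24, came from scaling the libraries to 10 pan-neuronal genes, a setting in which the median of all genes stood at 0.43. Each of these scaling genes had a negative log2 fold change in the main fit, from -0.08 (Syt1) to -1.06 (Elavl4). The scaling therefore moves other genes upward in the knockout. Wild-type 32 and 35, the highest for Oprd1, also had the highest pan-neuronal sums of the wild type (12434 and 13049 CPM), and without both the log2 fold change was -0.30. The part of neuron content in the difference was not tested.

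Within the receptor family the share of Oprd1 needs no scaling between libraries, because it is a ratio inside each library. Oprd1 made up 3.85%, 7.21%, 5.62%, 3.94% and 5.56% of the summed receptor level per kb in knockout 16, 29, 42, 49 and 50. In wild-type 22, 24, 32, 35 and 45 it made up 11.4%, 8.22%, 9.003%, 8.86% and 7.37%. Every wild-type share was above every knockout share, with knockout 29 and wild-type 45 nearly touching. The shares of the other opioid genes overlapped between the genotypes. How often such shares separate among other gene families was not counted. Because Oprl1 made up most of the summed level, the share is close to a ratio of Oprd1 to Oprl1. The lowest share, in knockout 16, came with the highest Oprl1 level of all libraries (95.4 CPM). The part of cell content in the share was not tested. This share was singled out after its values were seen, among 7 family shares of which those of one family add up to 100%, and it is given with no test.

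Oprk1 encodes the kappa receptor, the main target of dynorphins. Its level was 2.31, 2.44, 0.996, 3.19 and 6.99 CPM in knockout 16, 29, 42, 49 and 50, against 1.601, 1.47, 3.08, 3.004 and 2.29 CPM in wild-type 22, 24, 32, 35 and 45. Knockout 50 was the highest of the 10 libraries, and knockout 42 was the lowest of the 10. The means were 3.18 ± 2.27 CPM in knockout ganglia, against 2.29 ± 0.76 CPM in wild-type ganglia (SD, n = 5 each). The log2 fold change of 0.48 (SE 0.46, 95% interval -0.53 to 1.48, edgeR adjusted p = 0.661) rested on knockout 50: without that library it was -0.09. Knockout 50 held 200 counts of Oprk1 (exact 95% Poisson interval 6.05 to 8.03 CPM, counting error only).

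Oprm1, which encodes the mu receptor, the main target of morphine, had few counts in both genotypes. It had 86 counts in the 5 knockout libraries together and 88 in the 5 wild-type libraries. Its level was 0.711, 0.708, 0.640, 0.579 and 1.15 CPM in knockout 16, 29, 42, 49 and 50, and 0.267, 0.384, 1.21, 0.580 and 0.563 CPM in wild-type 22, 24, 32, 35 and 45. Knockout 50 and wild-type 32 were the highest of their genotypes, and the value of knockout 49 came from 2 counts (exact 95% Poisson interval 0.0701 to 2.09 CPM, counting error only). The log2 fold change was 0.38 (SE 0.41, 95% interval -0.52 to 1.28, edgeR adjusted p = 0.700). The interval runs from a 0.697-fold to a 2.43-fold level in the knockout. The value was 0.83 without wild-type 32 and 0.16 without knockout 50. Of its merged exon bases, 1.19% overlap exons of Ipcef1 on the opposite strand, and the strand setting of the authors' counting is not stated in the labels.

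**Figure D3:**
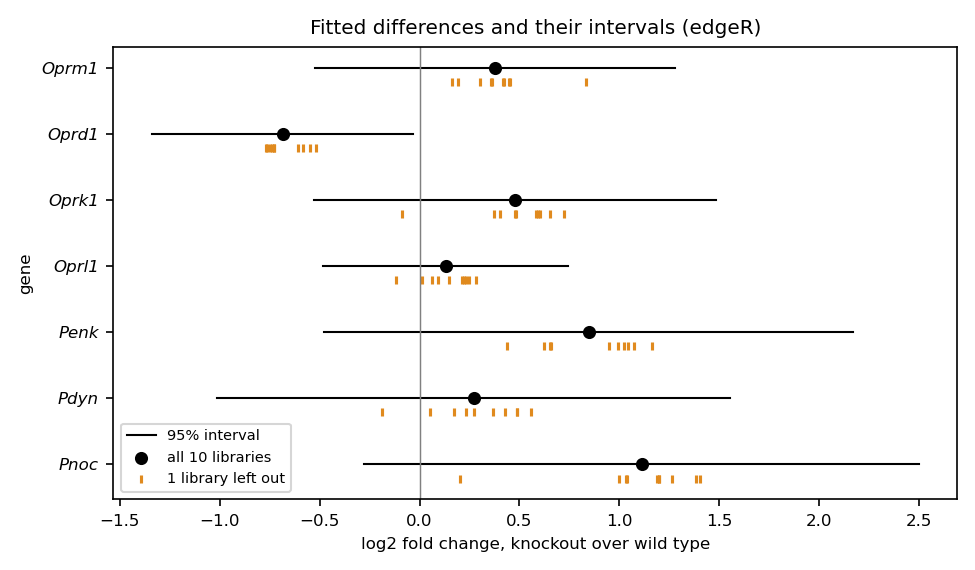
Log2 fold change (knockout over wild type) of the 7 genes from edgeR with its 95% interval (black), and the same value with each library left out in turn (orange ticks). The intervals of 6 genes span 0, and that of Oprd1 ends at -0.03 before adjustment over all genes.

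Penk, the enkephalin precursor gene, had the highest mean of the 7 genes and the widest spread between libraries (SD of log2 CPM 1.26 over the 10 libraries). It was at 61.3, 58.6, 249, 190.2 and 73.4 CPM in knockout 16, 29, 42, 49 and 50, against 125, 78.6, 12.5, 29.4 and 105 CPM in wild-type 22, 24, 32, 35 and 45. Knockout 42 and 49 were the highest, wild-type 32 and 35 the lowest, and the other 6 libraries lay between 58.6 and 125 CPM with both genotypes mixed. The means were 127 ± 87.9 CPM in knockout ganglia, against 70.2 ± 48.2 CPM in wild-type ganglia (SD, n = 5 each). The fitted log2 fold change was 0.85 (SE 0.61, 95% interval -0.48 to 2.17, edgeR adjusted p = 0.552). Without knockout 42 it was 0.44, and without wild-type 32 and 35 it was 0.34.

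The level of Penk went with the summed markers of mesenchyme, the connective tissue around the ganglion, though not with these alone. Across the 10 libraries Penk spanned a 19.95-fold range, whereas Penk as a percentage of the summed CPM of 8 mesenchyme markers spanned a 2.76-fold range. That percentage was 1.18% to 3.25% in the knockout and 1.36% to 2.97% in the wild type. All 8 mesenchyme markers were tested, 0 were called in either direction, and the lowest value of any of them was 4.23 CPM. Their summed level was 3889.99, 2841, 10576, 5857 and 6231 CPM in knockout 16, 29, 42, 49 and 50, and 6017, 5768, 707, 988 and 4311 CPM in wild-type 22, 24, 32, 35 and 45. Knockout 42 was the highest for both the marker sum and Penk, and wild-type 32 and 35 were the lowest for both. The collagen genes Col1a1, Col1a2 and Col3a1 made up most of that sum (3290, 2566 and 3537 CPM in knockout 42). Single markers differed from it. Prrx1 was highest in wild-type 22 (360 CPM, against 73.4 CPM in knockout 42) and Twist1 in wild-type 24 (105 against 54.3 CPM). Pdgfra also had its maximum in the wild type, and Dcn its minimum in the knockout. The sum of cartilage and bone markers was likewise highest in knockout 42 (870 CPM) and lowest in wild-type 32 and 35 (185 and 198 CPM). Macrophage and endothelial sums were lowest in wild-type 32 and 35 as well, but highest in knockout 50. Percentages were taken only of the mesenchyme, pan-neuronal and central nervous system sums, and for the latter lists Penk spanned 44.7-fold and 81.4-fold ranges. The part of mesenchyme or of these other tissues in the Penk values was not tested.

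A stretch of 233 bases, 14.3% of the merged Penk exons, overlaps A830012C17Rik, a processed transcript on the opposite strand. That gene was at 0.104 to 1.6004 CPM over the 10 libraries, far below Penk. Like Penk it was highest in knockout 42 and lowest in wild-type 32, and without knowing the strand setting its reads and those of Penk cannot be told apart in the shared stretch.

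**Figure D4:**
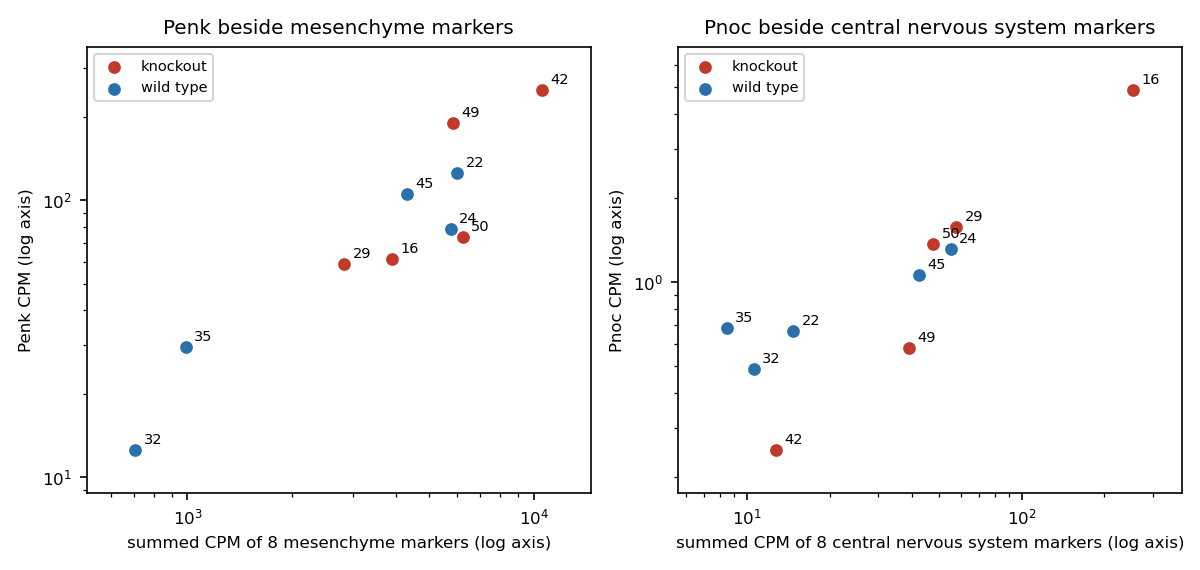
Penk CPM against the summed CPM of 8 mesenchyme markers (left), and Pnoc CPM against that of 8 central nervous system markers (right), 1 numbered point per library, log axes. Knockout 42 and wild-type 32 lie at opposite ends on the left, and knockout 16 lies far to the upper right on the right. Pax3 makes up most of the marker sum on the right in some libraries, such as wild-type 35 (8.16 of 8.43 CPM).

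Pnoc, which encodes the ligand of the Oprl1 receptor, was low in all but 1 library. It was at 4.86, 1.57, 0.249, 0.579 and 1.36 CPM in knockout 16, 29, 42, 49 and 50, against 0.667, 1.31, 0.485, 0.683 and 1.06 CPM in wild-type 22, 24, 32, 35 and 45. Knockout 16 held 164 of the 232 counts of Pnoc in the knockout, and the wild type held 125 in all. The value of knockout 49 came from 2 counts. The means were 1.72 ± 1.84 CPM in knockout ganglia, against 0.840 ± 0.335 CPM in wild-type ganglia (SD, n = 5 each). The log2 fold change was 1.11 (SE 0.63, 95% interval -0.28 to 2.50, edgeR adjusted p = 0.468), and 0.20 without knockout 16.

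Knockout 16 also had the most RNA of the genes listed as central nervous system markers, for hindbrain and spinal cord neurons and progenitors. The summed CPM of the 8 markers was 254, 57.8, 12.7, 38.8 and 47.7 CPM in knockout 16, 29, 42, 49 and 50, and 14.7, 55.3, 10.6, 8.43 and 42.3 CPM in wild-type 22, 24, 32, 35 and 45. Of 7 tested markers, 0 were called in either direction. Pax2, Lhx1 and Slc32a1 stood at 53.6, 35.7 and 18.7 CPM in knockout 16, and all 3 had 0 counts in wild-type 35. The 5 libraries with more than 1 CPM of Pnoc were the 5 with the highest marker sums. That match leaned on Pax3, which made up 37.5 of the 57.8 CPM in knockout 29. In wild-type 35 Pax3 made up 8.16 of the 8.43 CPM, so these sums cannot be read as amounts of central nervous tissue. Lhx1, Gad1, Gad2 and Slc32a1 were lower in knockout 29 than in knockout 49, where Pnoc was at 0.579 CPM, whereas Pax2 and Lhx5 were higher. Unlike the other markers, Pax3 had groups that did not overlap (10.6 to 38.6 CPM in the knockout, 8.16 to 10.1 CPM in the wild type). The part of central nervous tissue in the Pnoc values was not tested.

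Pdyn encodes the precursor of the dynorphins, ligands of the kappa receptor. Its level was 1.45, 0.315, 0.605, 3.47 and 0.978 CPM in knockout 16, 29, 42, 49 and 50, against 0.3003, 0.831, 1.45, 0.956 and 1.37 CPM in wild-type 22, 24, 32, 35 and 45. Knockout 49 was the highest, from 12 counts in the smallest library, and the other 9 libraries overlapped closely. The means were 1.36 ± 1.25 CPM in knockout ganglia, against 0.983 ± 0.465 CPM in wild-type ganglia (SD, n = 5 each). The log2 fold change was 0.27 (SE 0.59, 95% interval -1.01 to 1.55, edgeR adjusted p = 0.866) and -0.19 without knockout 49. Knockout 49 had the highest summed level of 8 epithelial and pituitary markers, 528 CPM. The other knockout libraries had sums of 16.9 to 77.7 CPM and the wild-type libraries of 10.1 to 87.6 CPM. The pituitary factor Pou1f1 stood at 5.50 CPM there, and no other library exceeded 0.423 CPM. Of the 4 tested markers of this list, 0 were called, and the part of such tissue in the Pdyn value was not tested.

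For each opioid gene, the 3 genes with the most similar profile were sought among 15521 other genes, by the root-mean-square difference of centred log2 CPM over the 10 libraries. Oprl1 was nearest to Pcdha5, a clustered protocadherin, with a difference of 0.14, to Map3k9, a kinase (0.14), and to Syt7, a synaptotagmin of the secretory pathway (0.14). Penk was nearest to Foxd2os (0.25), to Ccdc80, a secreted matrix protein gene (0.28), and to Slc38a4, an amino acid transporter gene (0.28). Oprd1 was nearest to Gm45605 (0.20), Dgki, a diacylglycerol kinase gene (0.20), and 1110017D15Rik (0.21). Oprm1 was nearest to St6galnac5 (0.27), Aatk (0.27) and Slc7a14 (0.28), and Pdyn to Zmat4 (0.28), Stx3 (0.45) and Stac (0.45). Pnoc was nearest to Sez6l (0.37), Myo16 (0.39) and Lrrc4b (0.41), and Oprk1 to Tdrp (0.44), Adamtsl2 (0.47) and Sctr (0.47). For scale, the SD of a gene's own log2 CPM was 0.48 for Oprl1 and 0.74 for Oprk1. The genes were picked for this likeness, so the differences are a description. None of the 3 nearest genes of any of the 7 was itself called between the genotypes (edgeR adjusted p of at least 0.378).

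The wider opioid pathway was followed with 43 further genes, of which 41 were tested and none was called (0 higher, 0 lower in edgeR's quasi-likelihood test). At an unadjusted p under 0.05 there were 14 of 41, where 13.1% of all tested genes reached that. The list was chosen with earlier results known, so the count is a description. The median log2 fold change was 0.06, against -0.03 over all tested genes. DESeq2 called 4 of the 41, where it called 3.69% of all genes: the peptidase genes Anpep (DESeq2 adjusted p = 0.0281) and Ece1 (0.00732) were higher in the knockout, and Rgs7 (0.0358) and Rgs10 (0.00383), regulators of G protein signalling, were lower. The groups did not overlap for 3 of 41 genes, where they did not for 4.21% of all tested genes. These 3, Anpep, Gnai3 and Rgs10, were named after their values were seen.

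Pomc, the precursor of beta-endorphin and of pituitary hormones, was at 1.48, 2.12, 1.24, 62.0 and 0.944 CPM in knockout 16, 29, 42, 49 and 50, against 1.90, 2.46, 1.25, 1.19 and 2.82 CPM in wild-type 22, 24, 32, 35 and 45. The 1 high library is the one with the high epithelial and pituitary marker sum. Its log2 fold change of 2.71 (SE 1.16, edgeR adjusted p = 0.358) was -0.42 without knockout 49.

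Among 6 genes for precursor processing, 0 were called. Cpe, the carboxypeptidase that trims the cut peptides, was at 403 ± 92.2 CPM in knockout ganglia, against 336 ± 77.9 CPM in wild-type ganglia (SD, n = 5 each). Pcsk1n, an inhibitor of proprotein convertase 1, was at 96.9 ± 53.3 CPM in knockout ganglia, against 55.3 ± 18.2 CPM in wild-type ganglia. The neuroendocrine convertase genes are added for their role. Pcsk1 spanned 11.0 to 18.8 CPM in knockout ganglia, against 7.01 to 18.8 CPM in wild-type ganglia. Pcsk2 spanned 34.2 to 58.2 CPM in knockout ganglia, against 51.6 to 100.2 CPM in wild-type ganglia (log2 fold change -0.61, SE 0.23, edgeR adjusted p = 0.294).

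Among 7 genes for peptide breakdown, 0 were called. Npepps, a puromycin-sensitive aminopeptidase, was at 163 ± 16.03 CPM in knockout ganglia, against 159 ± 14.8 CPM in wild-type ganglia (SD, n = 5 each). Dpp3, a dipeptidyl peptidase that degrades enkephalins, averaged 158 ± 44.7 CPM in knockout ganglia, against 151 ± 15.01 CPM in wild-type ganglia. Anpep, aminopeptidase N, had values of 19.0, 19.7, 50.5, 27.8 and 47.7 CPM in knockout 16, 29, 42, 49 and 50, against 18.1, 15.8, 4.78, 6.28 and 18.4 CPM in wild-type 22, 24, 32, 35 and 45. Its groups were separated by a narrow gap, and its log2 fold change was 1.38 (SE 0.43, edgeR adjusted p = 0.220). Like Penk, Anpep was highest in knockout 42 and lowest in wild-type 32 and 35.

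Of 5 genes for inhibitory G protein alpha subunits, 0 were called. Gnao1, the abundant neuronal subunit, was at 356 ± 89.0 CPM in knockout ganglia, against 341 ± 77.0 CPM in wild-type ganglia (SD, n = 5 each). Gnai2 averaged 363 ± 66.0 CPM in knockout ganglia, against 251 ± 82.0 CPM in wild-type ganglia (log2 fold change 0.53, SE 0.21, edgeR adjusted p = 0.334). Gnai3 was at 158 to 237 CPM in knockout ganglia, against 249 to 309 CPM in wild-type ganglia, with no overlap. It had a log2 fold change of -0.34 (SE 0.14, edgeR adjusted p = 0.337) and one of 0.16 under pan-neuronal scaling, where the median of all genes stood at 0.43, so that it lay below the median of all genes in both. Among the effectors, 6 of 8 were tested and 0 were called. The N-type calcium channel gene Cacna1b was at 207 ± 40.0 CPM in knockout ganglia, against 242 ± 113 CPM in wild-type ganglia. The adenylyl cyclase gene Adcy1 averaged 167 ± 37.6 CPM in knockout ganglia, against 172 ± 50.8 CPM in wild-type ganglia. The subunits of potassium channels opened by G proteins are given for their role. Kcnj3, the most abundant of them, averaged 13.1 CPM in knockout ganglia, against 21.8 CPM in wild-type ganglia (log2 fold change -0.74, SE 0.29, edgeR adjusted p = 0.332). Kcnj9 averaged 0.923 CPM in knockout ganglia, against 0.381 CPM in wild-type ganglia (log2 fold change 1.35, SE 0.54, edgeR adjusted p = 0.327). Kcnj5 and Kcnj6 did not pass the filter. Kcnj5 averaged 0.607 CPM in knockout ganglia, against 0.242 CPM in wild-type ganglia, and Kcnj6 averaged 0.716 CPM in knockout ganglia, against 0.292 CPM in wild-type ganglia.

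Receptor desensitization and G protein regulation were covered by 12 genes, of which 0 were called. Rgs10 came nearest: it was at 23.2, 47.4, 20.6, 18.8 and 31.0 CPM in knockout 16, 29, 42, 49 and 50, against 49.8, 69.7, 82.5, 80.1 and 48.1 CPM in wild-type 22, 24, 32, 35 and 45. Every knockout library was below every wild-type library, with knockout 29 close to wild-type 45. Its log2 fold change was -1.22 (SE 0.27, edgeR adjusted p = 0.0807), and it was called in 3 of 17 alternative analyses, among them the one without knockout 29 (-1.45, edgeR adjusted p = 0.0225). The beta-arrestin gene Arrb1 was at 186 ± 49.7 CPM in knockout ganglia, against 228 ± 41.8 CPM in wild-type ganglia (SD, n = 5 each). Rgs4 averaged 138 ± 22.8 CPM in knockout ganglia, against 162 ± 36.9 CPM in wild-type ganglia.

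The 4 genes of receptor trafficking and other binding partners also had 0 calls. Gprasp1, a sorting protein of internalised receptors, was at 347 ± 76.3 CPM in knockout ganglia, against 376 ± 85.6 CPM in wild-type ganglia (SD, n = 5 each). Wls, a Wnt sorting receptor that binds the mu receptor, was at 140 ± 60.7 CPM in knockout ganglia, against 98.2 ± 59.9 CPM in wild-type ganglia.

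**Figure D5:**
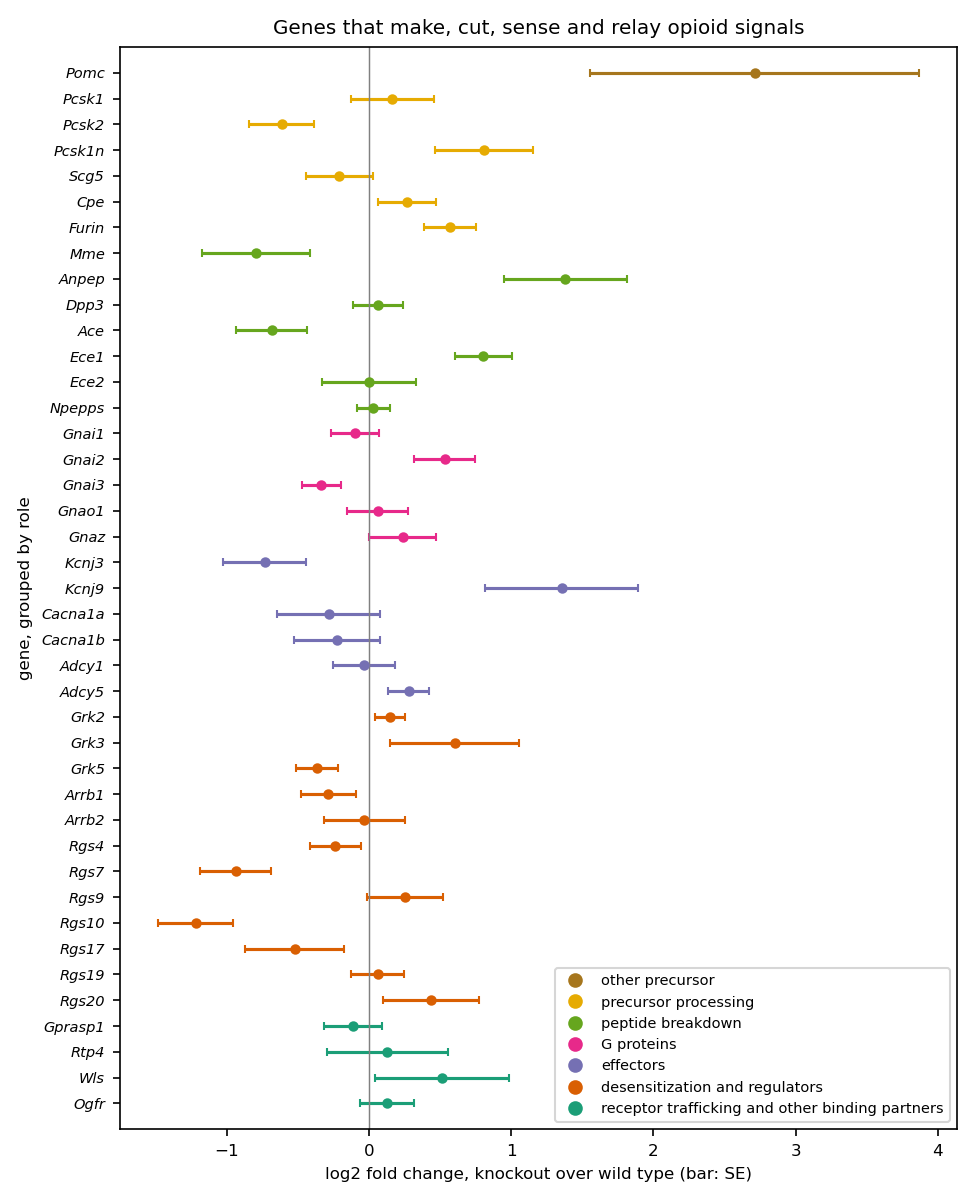
Log2 fold change (knockout over wild type, bar: SE) of the 41 tested pathway genes, coloured by role. Pomc at 2.71 lies farthest to the right, with the widest bar, and Rgs10 at -1.22 farthest to the left.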

How the data were processed

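Each sample has 1 file of raw counts as the authors deposited it, with 55414 Ensembl IDs. Per the submitters' processing notes the tools were featureCounts 1.5.0-p1, STAR 2.7.10a and bcl2fastq 2.20.0.422, with the builds GRCm39 and mm10 named without a role. Annotation release, strand setting and the treatment of multimapping reads are not stated in the labels or files. Symbols matched 52081 IDs.

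Genes were kept with filterByExpr (minimum count 10) and TMM-scaled. The genotypes were compared with edgeR 4.0.16 (R 4.3.3), by its quasi-likelihood test (glmQLFit, glmQLFTest). A gene was called at a Benjamini-Hochberg adjusted p under 0.05 over the 18005 genes that passed. The SE is the log2 fold change divided by the root of the F statistic. DESeq2 1.42.0 was an alternative. Single values were also tested over the 252 assignments of 5 libraries among 10. The procedure was tested on simulated data with planted changes larger than any fitted for the opioid genes, so the power for smaller differences was not measured. Exon lengths and coding sequences come from GENCODE M21 (GRCm38), and the longest complete coding sequence of each gene was used. The authors' annotation appears to be a later one, as 2147 of the counted IDs belong to the newer series ENSMUSG00002. Exon lengths, overlaps and levels per kb could differ under it. Intervals of counts and floors cover counting error only.

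The opioid genes, pathway list and marker lists were chosen with earlier results of these data known. Named pathway genes were the 2 with the highest mean CPM in each role and any called, Anpep, Gnai3 and Rgs10 were added after their values were seen, and the 3 nearest profiles of each opioid gene were taken among genes with a mean of at least 1 CPM. Alternatives were another tool, another scaling, no filter, a robust dispersion, pan-neuronal scaling, and leaving out each library or a pair.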

Additional observations from a re-analysis of the deposited data

Results flagged for a closer look

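Within each genotype, the 7 opioid genes were checked for a library far from the rest (14 groups of 5 libraries). Dixon's ratio of the gap to the range was used on CPM, and it marks about 1 group in 20 where values are normally distributed. The CPM of genes with few counts need not be, so this rate may not hold here. Oprm1 in knockout 50, at 1.15 CPM from 33 counts, stood apart from the next knockout library at 0.711 CPM by more than the spread of the others, but their exact 95% Poisson intervals overlap (0.794 to 1.62 CPM in knockout 50 and 0.456 to 1.06 CPM in knockout 16). Pnoc in knockout 16, at 4.86 CPM, was above the next knockout library at 1.57 CPM, and their intervals do not overlap (4.14 to 5.66 CPM in knockout 16 and 0.961 to 2.43 CPM in knockout 29).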

How the results depend on the processing

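None of the 7 opioid genes was called in any of the 17 alternative analyses (0 of 119 values), and Oprm1, Oprd1, Penk and Pnoc kept their direction in all 17. With each library left out in turn, the log2 fold change was -0.0882 to 0.72 for Oprk1 (negative without knockout 50), -0.12 to 0.28 for Oprl1 (negative without knockout 16) and -0.19 to 0.56 for Pdyn (negative without knockout 49). It was -0.42 to 3.04 for Pomc, -0.0232 to 0.0841 for Npepps, -0.10 to 0.14 for Dpp3, -0.0431 to 0.16 for Gnao1, -0.37 to 0.0134 for Cacna1b, -0.17 to 0.12 for Adcy1 and -0.23 to 0.0312 for Gprasp1. Pan-neuronal scaling, which moved the median of all genes to 0.43, gave 0.32 for Cacna1b, 0.50 for Adcy1, 0.17 for Arrb1, 0.26 for Rgs4, 0.42 for Gprasp1 and 0.16 for Gnai3. Relative to that median, Oprm1, Oprk1, Oprl1, Penk, Pdyn and Pnoc (0.62 to 1.35) lay above the median and Oprd1 (-0.24) below it. Without wild-type 32 and 35 the values were 0.39 for Cacna1b, 0.34 for Adcy1, 0.0241 for Rgs4 and 0.11 for Gprasp1. Without knockout 29 and 49 they were -0.65 for Pomc, -0.11 for Dpp3, 0.13 for Adcy1 and 0.0375 for Gprasp1. Adcy1 was at 0.0139 with DESeq2 and 0.0140 with its size factors in edgeR. The cause of these changes of direction was not tested.

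Over all genes, 17 were called higher and 67 lower in the knockout. DESeq2 called 399 and 238, no filter 55 and 102, pan-neuronal scaling 57 and 38, leaving out wild-type 32 and 35 0 and 19, and leaving out knockout 29 and 49 6 and 47. Leaving out 1 library gave 2 to 35 higher and 27 to 88 lower genes: the count of higher genes was 35 without knockout 16 or wild-type 24, and 2 to 6 without knockout 42, 49 or 50 or wild-type 22, 32, 35 or 45. The count of lower genes was 27 to 32 without knockout 42, 49 or 50 or wild-type 32 or 35. Of the pathway genes, DESeq2 called 2 higher and 2 lower, no filter 1 lower (Rgs10), and leaving out 1 library 0 to 1 higher (Ece1 without knockout 16) and 0 to 1 lower (Rgs10 without knockout 29). No paired analysis was possible because the genotypes share no replicate number.

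Depth limits the rarest genes: Oprm1 and Pnoc had 2 counts each in knockout 49, under the floor of 3, and Pdyn had 4 in knockout 29. Fold changes of these genes carry wide intervals, and values that miss the threshold do not show that the genotypes were alike.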
